A study of Homo sapiens with 6 samples.

Results

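S100 proteins are small calcium-binding proteins of the EF-hand type, and 10 of their genes were followed here between a human breast epithelial line and its fluvastatin-resistant derivative. The genes are S100A2, S100A4, S100A6, S100A7, S100A8, S100A9, S100A10, S100A14, S100A16 and S100P. They were taken by gene symbol, and each has 1 probe set among the 135750 transcript probe sets of the array, which carry 81496 distinct symbols. MCF10.AT1 is a preneoplastic line of the MCF10A series, and MCF10.AT1-R was selected from it by adding fluvastatin, an inhibitor of HMG-CoA reductase, in steps of 1 µM, 5 µM and up to 20 µM. MCF10.AT1 was untreated. Total RNA from 3 biological replicates of each line was hybridised to Clariom D arrays, which read coding and noncoding transcripts with short probes. MCF10.AT1-R is 1 selected line, so the spread between its arrays does not include the spread between independent selections.

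Most S100 proteins work as dimers. When calcium binds, a hydrophobic surface opens and takes hold of partner proteins such as annexins, cytoskeletal proteins and enzymes. S100A10 is the exception that does not need calcium. Several S100 proteins are also released from cells, where S100A8 and S100A9, which pair as calprotectin, are ligands of the receptors TLR4 and AGER. In stratified and glandular epithelium, S100A2, S100A7, S100A8, S100A9 and S100A14 are known from keratinocytes and basal cells, and S100A4 is known from fibroblasts and motile cells. Most of the genes, with their fused-type relatives of the epidermal differentiation complex, lie on chromosome 1, whereas S100P lies on chromosome 4.

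Values are log2 expression made by RMA (robust multichip average), and changes are MCF10.AT1-R minus MCF10.AT1 on that scale. The comparison used the 5 arrays that the study kept, A01 and A02 of MCF10.AT1 and B02, B03 and B04 of MCF10.AT1-R. The correlation between any pair of these arrays was 0.967 to 0.977. The MCF10.AT1 array A03, removed by the study as an outlier, correlated with them at 0.779 to 0.795 and is given apart. A level was taken as background at or below 2.99, the mean over the 5 arrays of the 95th percentile of 612 negative control probe sets. Low and invariant probe sets were left out, and 51457 were tested with limma. At a false discovery rate (FDR) of 5%, 620 were called, which is 1.2% of those tested. Of the probe sets tested, 0.758% were called higher and 0.447% lower in MCF10.AT1-R.

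Of the 10 S100 genes, 7 were tested. S100A8 and S100P rose in MCF10.AT1-R, S100A4 fell, and S100A2, S100A9, S100A10 and S100A14 did not pass the test. S100A6 and S100A16 were left out as invariant and S100A7 as low. The median change of the 10 genes was 0.53, beside -0.01 over all probe sets tested. The MCF10.AT1-R arrays lay wholly above both MCF10.AT1 arrays for 8 genes, wholly below them for S100A4, and overlapped them for S100A7. Over all transcript probe sets, 12.2% lay wholly above and 11.1% wholly below. With A03 counted as MCF10.AT1, 8 genes lay wholly above and 0 wholly below, beside 4.77% and 7.6% of all transcript probe sets. A03 itself read below the other 5 arrays for 8 of the 10 genes. Where it does, a gene already higher in MCF10.AT1-R stays wholly above, and S100A4 cannot stay wholly below. The counts with A03 are therefore no separate support.

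**Figure D1:**
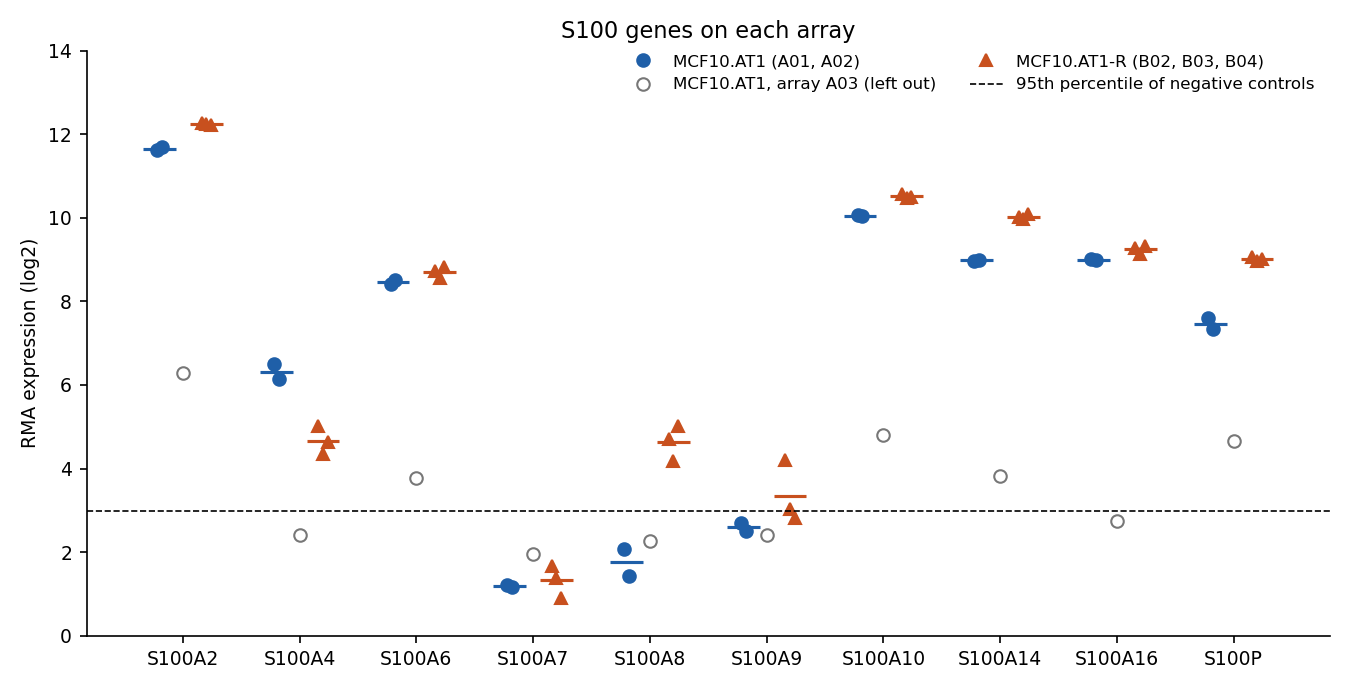
RMA expression (log2) of the 10 S100 genes on each array. Filled circles are MCF10.AT1 arrays A01 and A02, triangles are MCF10.AT1-R arrays B02, B03 and B04, short lines are group means, open circles are the left-out array A03, and the dashed line is the background level of 2.99. A03 lies below the other 5 arrays for 8 of the 10 genes, and probe sets are not compared with each other in level.

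S100A8, the calprotectin subunit known from neutrophils and stressed keratinocytes, was higher in MCF10.AT1-R. It read 2.08 and 1.43 on the MCF10.AT1 arrays and 4.71, 4.19 and 5.02 on the MCF10.AT1-R arrays. Both MCF10.AT1 arrays were within background and the 3 MCF10.AT1-R arrays were above it, so the gene passed the filter on low values through the resistant line alone. In RNA of whole cultures, a larger share of cells with a transcript and more transcript per cell cannot be told apart. The measured change was 2.89 ± 0.31 (SE, n = 2 and 3; limma with Benjamini-Hochberg adjustment, adjusted p = 3.16e-17), and with no filter the limma adjusted p was 0.0118. The MCF10.AT1 level is only bounded by the background. With that level set at the background, S100A8 was 3.13-fold higher in MCF10.AT1-R, a log2 change of 1.65. This is a point estimate that leaves out sampling error and depends on the background level chosen. The 95th percentile of the negative controls was 3.14 on A01 and 3.03 on A02, both above the mean used. S100A8 was the only one of the 10 genes called when A03 was added back, with a change of 2.72 (limma adjusted p = 0.0311). A03 read 2.26 for S100A8, within background as on A01 and A02, so its low signal could hardly move this gene. That call is therefore no separate support for the change. With every value under the background raised to it, the call was lost (limma adjusted p = 0.288), and over all 15 alternatives the adjusted p ran from 2.79e-19 to 0.288.

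S100A9, which forms the calprotectin dimer with S100A8, read 2.70 and 2.50 in MCF10.AT1 and 4.21, 3.02 and 2.82 in MCF10.AT1-R. None of the 2 MCF10.AT1 arrays and 2 of the 3 MCF10.AT1-R arrays were above background. The change of 0.75 (95% interval 0.14 to 1.36) did not pass the test (limma adjusted p = 0.381), and without array B02 it was 0.32. In the fit without a filter the interval was -0.12 to 1.62. With values raised to the background, the changes were 1.65 for S100A8 and 0.41 for S100A9. Both genes were within background on both MCF10.AT1 arrays, so their changes were not compared further. S100A12, the nearest relative of this pair and also known from neutrophils, stayed at 1.03 to 1.39 on all 5 arrays, within background.

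Markers of 2 cell types known for calprotectin were read beside this pair. Of 8 myeloid markers, of which 6 were tested, CD14 fell by 1.12 (limma adjusted p = 0.0298) and the other 5 tested were not called. PTPRC, LYZ and FCGR3B were within background on all 5 arrays. The summed log2 level of the list was 21.7 to 23.4 in MCF10.AT1 and 22.6 to 23.99 in MCF10.AT1-R. Of 8 markers of cornifying keratinocytes, of which 5 were tested, KRT1 rose by 1.10 and CDSN by 1.14 (limma adjusted p = 0.0366 and 0.0269). KRT10 (change 0.58), KRT2 (0.41) and LCE2B (-0.40) were not called. LOR was left out as invariant (-0.14), and FLG and DSC1 were within background. The summed level of the 8 markers was 23.7 to 24.3 in MCF10.AT1 and 26.3 to 27.8 in MCF10.AT1-R. The part of this in the change of S100A8 was not tested.

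S100P, first described in placenta and known as a released ligand of AGER, read 7.61 and 7.33 in MCF10.AT1 and 9.05, 8.96 and 9.03 in MCF10.AT1-R. The 3 resistant arrays, with an SD of 0.047, lay at least 1.35 above the higher MCF10.AT1 array. The change was 1.55 ± 0.31 (SE), or 2.92-fold (limma adjusted p = 0.000178). The call was lost without array A02 (limma adjusted p = 0.0858), where the change was 1.41. It was also lost with A03 added back, where the change was 2.48, and with values raised to the background (limma adjusted p = 0.0674). Raising values left the change of S100P itself at 1.55, and only the fit over all probe sets differed. Over the 15 alternatives the limma adjusted p of S100P ran from 1.85e-32 to 0.771. S100PBP, a nuclear protein that binds S100P, had a change of -0.04 and EZR, the ezrin linker of membrane and actin that S100P binds, one of 0.59, and neither was called.

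S100A4, also called metastasin and known for binding nonmuscle myosin, was the only one of the 10 genes that fell. It read 6.49 and 6.15 in MCF10.AT1 and 5.02, 4.36 and 4.63 in MCF10.AT1-R. The lowest MCF10.AT1 array was 1.13 above the highest MCF10.AT1-R array, and all 5 arrays were above background. The change was -1.65 ± 0.31 (SE), a 3.15-fold lower level in MCF10.AT1-R (limma adjusted p = 3.33e-05). The call was lost with the filter on low values alone (limma adjusted p = 0.0688), with no filter (0.0711) and with values raised to the background (0.243). In these settings the change of S100A4 itself stayed at -1.65, and only the fit over all probe sets differed. Over the 15 alternatives the limma adjusted p of S100A4 ran from 7.40e-09 to 0.938. The call was kept when A01, A02, B02, B03 or B04 was left out. Array A03 read 2.42 for S100A4, below all 5, and with A03 as MCF10.AT1 the change was -0.35 (adjusted p = 0.938).

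S100A4 was set beside the markers of fibroblasts, in which it is abundant. DCN, which encodes the matrix proteoglycan decorin, fell by 2.15 (limma adjusted p = 3.88e-09) and was the 1 called of 6 markers, the other 5 being left out as low or invariant. COL1A1, COL1A2 and COL3A1 were left out as invariant, with changes of 0.15, 0.13 and -0.16. The summed level of the list was 27.0 to 27.7 in MCF10.AT1 and 24.8 to 25.6 in MCF10.AT1-R. Without DCN it was 21.7 to 22.3 in MCF10.AT1 and 21.8 to 22.3 in MCF10.AT1-R, so the lower sum is that of DCN alone. MYH9, the nonmuscle myosin heavy chain that S100A4 binds, had a change of 0.85 (limma adjusted p = 0.236) on the probe set with the highest mean. Its other 4 probe sets had changes of 0.09 to 0.62. Of these, only the one with a change of 0.21 was above background on all 5 arrays. The one with 0.62 was within background on all 5.

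The sequence before the start site is shown for the 3 genes that changed and for S100A9 as the partner of S100A8. S100A14 and S100A2 are shown as genes without the exact letters TATAAA. The stretches were taken from RefSeq promoter windows (GRCh38.p14) of 300 bases, 250 before and 50 after the start, of which the 10 genes have 14. Each ends at the base before the start, 5′ to 3′ on the gene's strand. Capitals mark TATAAA, or TGANTCA in S100A2.
S100A8: cTATAAAaaggagctgcctctcagccctgc
S100P: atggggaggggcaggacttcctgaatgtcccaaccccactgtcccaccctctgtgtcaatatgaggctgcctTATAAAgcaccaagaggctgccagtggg
S100A4: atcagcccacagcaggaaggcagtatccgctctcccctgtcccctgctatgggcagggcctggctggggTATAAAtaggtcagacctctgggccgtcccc
S100A9: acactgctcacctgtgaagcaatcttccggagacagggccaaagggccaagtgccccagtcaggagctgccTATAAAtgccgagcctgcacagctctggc
S100A14: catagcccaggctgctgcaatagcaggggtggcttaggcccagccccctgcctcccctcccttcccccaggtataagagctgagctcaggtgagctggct
S100A2: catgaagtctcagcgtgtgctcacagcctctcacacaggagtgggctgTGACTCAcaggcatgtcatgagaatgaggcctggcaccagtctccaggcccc

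These stretches are chr1:153391074-153391103 (minus strand) for S100A8, chr4:6693778-6693877 (plus) for S100P, chr1:153545807-153545906 (minus) for S100A4, chr1:153357754-153357853 (plus) for S100A9, chr1:153616326-153616425 (minus) for S100A14 and chr1:153565845-153565944 (minus) for S100A2. S100A8 has 3 listed starts and is shown for 30 bases before the one with the match near it. TATAAA, the core of the TATA box that sets the start of transcription, began 29 bases before the start in S100A8 and S100A9, 28 before it in S100P and S100A7, and 31 before it in S100A4. It was found, on either strand, in a window of 5 of the 10 genes and of 14% of all 27305 genes with a window. The 5 were S100A4, S100A7, S100A8, S100A9 and S100P. S100A2, S100A6, S100A10, S100A14 and S100A16 had no match to these letters. Only these exact letters were searched, and the stretch of S100A14 holds tataag, which differs in the last letter.

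A further 4 motifs were searched on both strands. TGANTCA, the letters bound by AP-1, was found in 1 of the 10 genes, S100A2, 52 bases before the start, and in 9.37% of all genes. TTGCNNAA (C/EBP, 12.7% of all genes), TTCNNNGAA (STAT, 9.38%) and TCACNCCAC (SREBP, 1.39%) were found in none of the 10 genes. A match describes the letters of the window and is no measure of binding.

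S100A14, S100A16, S100A2, S100A10 and S100A6 were above background on all 5 arrays and were not called. S100A14, known from epithelial cells, read 8.97 and 8.99 in MCF10.AT1 and 10.01, 9.97 and 10.09 in MCF10.AT1-R. The arrays were 0.97 apart between the lines, and the change of 1.04 (95% interval 0.43 to 1.65), or 2.06-fold, did not pass the test (limma adjusted p = 0.0614). S100A16, its neighbour on the chromosome and a widely expressed family member, read 9.01 and 8.99 against 9.28, 9.14 and 9.32, a change of 0.25. The change of S100A14 exceeded that of S100A16 by 0.79 (exact permutation test, two-sided by doubling the smaller tail, p = 0.2). With 2 arrays against 3 this doubled p cannot be smaller.

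S100A2, a p63 target of basal epithelial cells, read 11.61 and 11.70 in MCF10.AT1 and 12.26, 12.25 and 12.22 in MCF10.AT1-R. Its change was 0.59 (95% interval -0.02 to 1.20; limma adjusted p = 0.634). The lines did not overlap, with 0.52 between the nearest arrays. TP63, which encodes p63, rose by 1.74 and the basal keratins KRT5, KRT14 and KRT17 by 1.71, 2.37 and 4.08. Of the 7 markers of this breast epithelium, 5 were called higher, these and CDH1, beside 0.758% of all probe sets tested. EPCAM (change 0.78) and KRT18 (0.85) were tested and not called. All 7 had arrays wholly above those of MCF10.AT1, beside 12.2% of all transcript probe sets. Of 4 luminal markers, ESR1 and FOXA1 were tested and not called, PGR was left out as low and invariant, and GATA3 was left out as invariant, with arrays wholly higher in MCF10.AT1-R (change 0.18). The part of the basal markers in the changes of the S100 genes was not tested.

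S100A10, which joins ANXA2 in a tetramer at the plasma membrane, read 10.06 and 10.04 in MCF10.AT1 and 10.57, 10.48 and 10.50 in MCF10.AT1-R. The change was 0.47 (95% interval -0.15 to 1.08; limma adjusted p = 0.77), with the lines apart by 0.42. ANXA2 changed in the same direction by 0.36 and was not called. The changes of the pair differed by 0.10 (exact permutation test, two-sided, p = 0.6), with differences on the arrays of 0.01 and -0.13 in MCF10.AT1 and -0.02, 0.21 and -0.06 in MCF10.AT1-R.

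S100A6, calcyclin, known from proliferating cells, read 8.42 and 8.52 in MCF10.AT1 and 8.73, 8.56 and 8.83 in MCF10.AT1-R. The change was 0.24, and only 0.04 lay between the nearest arrays of the lines. S100A4 fell against S100A6 by 1.89 (exact permutation test, two-sided by doubling the smaller tail, p = 0.2). With 2 arrays against 3 this doubled p cannot be smaller. The differences were -1.92 and -2.37 in MCF10.AT1 and -3.71, -4.20 and -4.20 in MCF10.AT1-R. CACYBP, the calcyclin-binding protein, was left out as invariant, as were the annexins ANXA1 (change 0.25) and ANXA11 (-0.17).

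S100A7, psoriasin, known from inflamed skin and from ductal carcinoma in situ, read 1.20 and 1.17 in MCF10.AT1 and 1.68, 1.39 and 0.91 in MCF10.AT1-R. All 5 values were within background and no fold is given. Its close copy S100A7A was above background on 1 of the 5 arrays (2.32 and 2.62 against 3.07, 2.74 and 2.67). The promoter windows of the 2 genes differ at 11 of 300 bases, and how the probes separate such copies was not examined.

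The test in use gives every probe set one common SD of 0.34, since limma estimated an infinite prior df after the invariant probe sets were removed (4.20 with the filter on low values alone). Of the 7 genes tested, 5 had a residual SD below it, among them S100A2 (0.040), S100A10 (0.039) and S100A14 (0.050). S100A8 (0.433) and S100A9 (0.616) had a residual SD above it. When the variance was allowed to follow the expression level (the trend option of limma), 6 of the 7 were called, all but S100A9, where 2.68% of the probe sets tested were called. With that option and the filter on low values alone, the limma adjusted p was 7.79e-06 for S100A2, 0.00106 for S100A10 and 3.55e-06 for S100A14. The direction of these 3 genes was higher in MCF10.AT1-R under all 15 alternatives. That was largely fixed in advance and is no separate support. Other filters or variance models leave the change itself as it is. Leaving out 1 array cannot reverse lines whose arrays do not overlap.

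**Figure D2:**
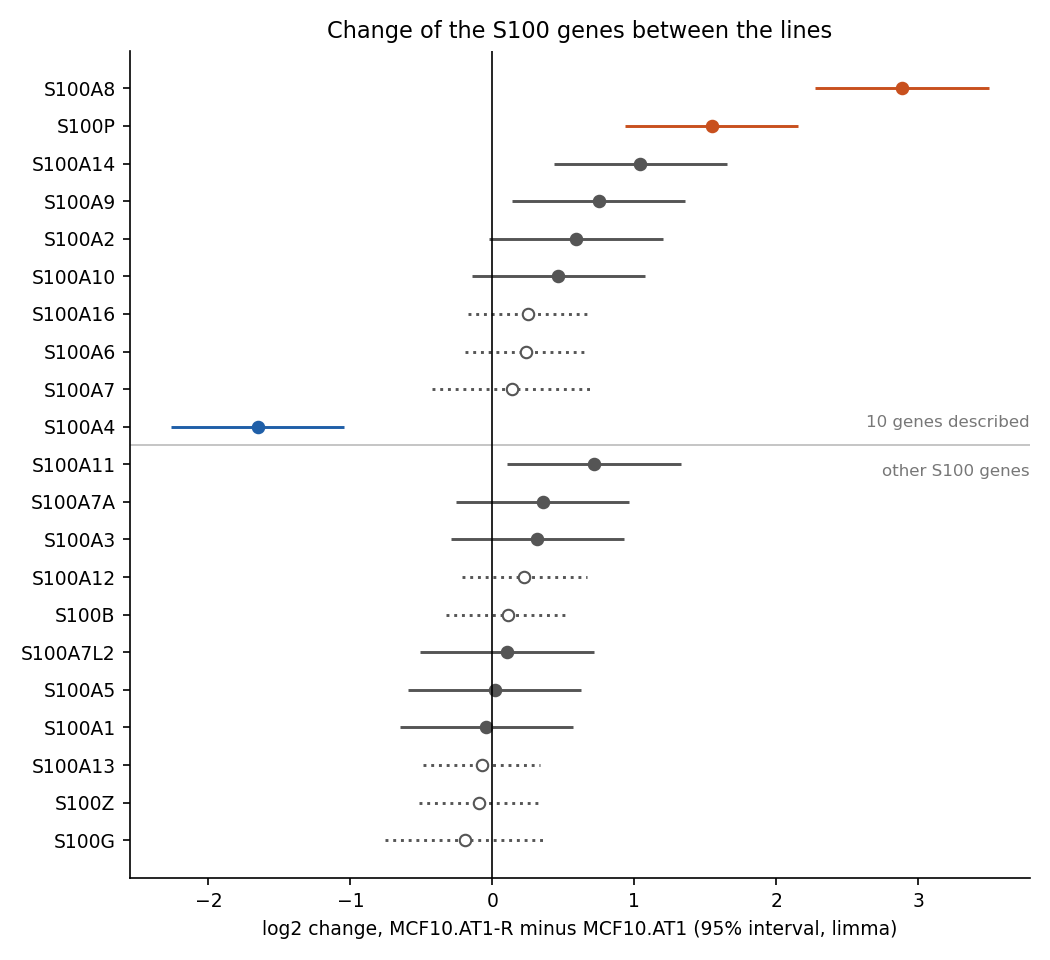
Log2 change (MCF10.AT1-R minus MCF10.AT1) with its 95% interval for the 10 S100 genes (above the line) and 11 other S100 genes (below it). Filled points were tested with limma, open points with dotted intervals were left out by the filter and come from the fit without it, and colour marks genes called at FDR 5%, which are S100A8 and S100P (higher) and S100A4 (lower). The intervals of S100A2 and S100A10 reach below 0 at the common SD, and those of S100A9 and S100A14 do not. In the fit without a filter they were 0.18 to 1.00 for S100A2, 0.05 to 0.88 for S100A10 and -0.12 to 1.62 for S100A9. S100A8 and S100A9 were within background in MCF10.AT1, so their plotted changes rest on values under the background.

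Of the remaining genes of the family and its partners, 35 in all, 21 were tested and 0 called, beside 1.2% of all probe sets tested. Of 11 other S100 genes 6 were tested, of 7 fused-type S100 genes 3, and of 17 partners and receptors 12. At an unadjusted limma p under 0.05 there were 3 of the 21, S100A11, MYH9 and IQGAP1, beside 8.26% of all probe sets tested. With the trend option 5 were called, S100A11, ANXA2, EZR, MYH9 and IQGAP1, beside 2.68% of all probe sets tested. S100A11, calgizzarin, which binds ANXA1, read 9.56 and 9.55 in MCF10.AT1 and 10.33, 10.22 and 10.26 in MCF10.AT1-R, a change of 0.72 (limma adjusted p = 0.434). Of the other S100 genes, S100A3 had a change of 0.32, and 6 were within background on all 5 arrays. Of the fused-type genes, which include the filaggrins and encode proteins of the cornified layer, 5 of 7 were within background on all 5 arrays.

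The receptors that take released S100 proteins were read in both lines. AGER, the receptor for advanced glycation end products, read 3.11 and 3.30 in MCF10.AT1 and 3.52, 2.72 and 3.33 in MCF10.AT1-R, close to background, and its change was -0.02. TLR4 read 6.51 and 6.09 in MCF10.AT1 and 5.77, 6.04 and 6.06 in MCF10.AT1-R. Its arrays were wholly lower in MCF10.AT1-R and its change of -0.34 did not pass the test (limma adjusted p = 0.834).

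In RefSeq order of protein-coding genes along chromosome 1, S100A8 lies between S100A12 and S100A7A. S100A12 was within background on all 5 arrays and was not tested, and S100A7A was above background on 1 array, so no change can be read for these neighbours. S100A4 lies between S100A5, also within background on all 5 arrays, and S100A3, which was above background on all 5 arrays and had a change of 0.32 (limma adjusted p = 0.836). S100A14 lies between S100A16 (0.25) and S100A13 (-0.08).

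**Figure D3:**
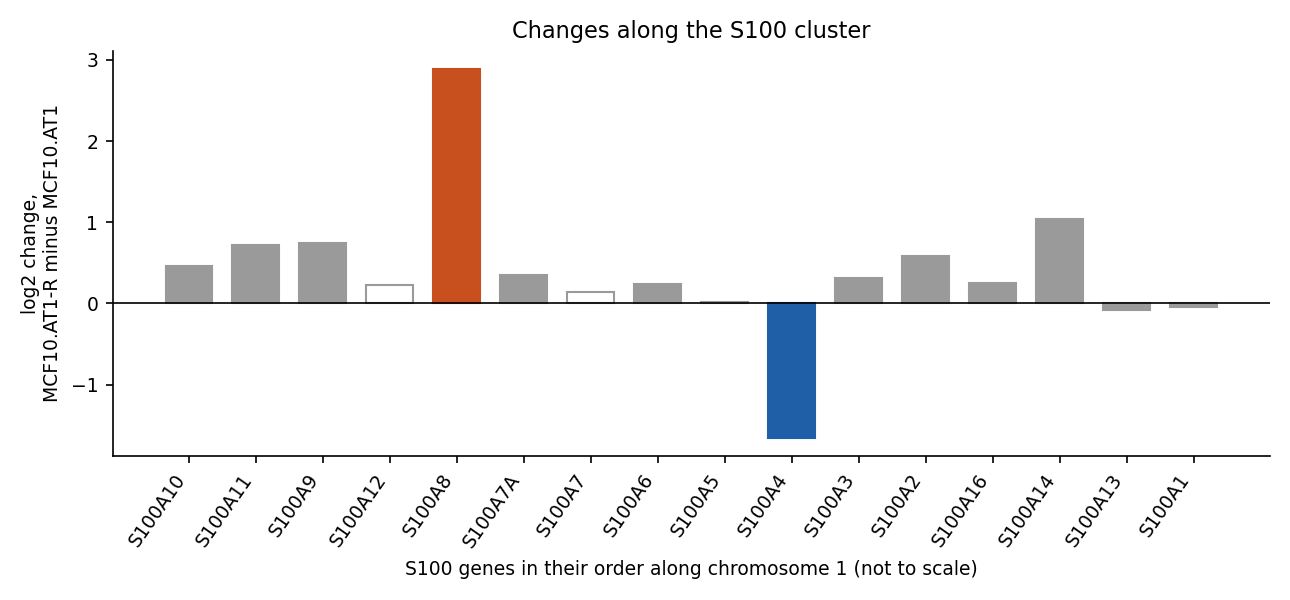
Log2 change (MCF10.AT1-R minus MCF10.AT1) of the 16 S100 genes annotated in RefSeq as protein-coding on chromosome 1, in their order along it, not to scale. S100A7L2 is not among them. Orange marks the gene called higher (S100A8), blue the gene called lower (S100A4), grey the genes not called or not tested, and open bars the genes within background on all 5 arrays. S100A4 fell by 1.65, and its neighbour S100A3, above background on all 5 arrays, had a change of 0.32.

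Array A03 read low for most of the genes, and not for the S100 genes alone. The summed level of the 17 partners and receptors was 117.2 to 118.1 on A01 and A02 and 58.8 on A03. For the 7 breast epithelium markers it was 48.9 to 49.7 against 26.6 on A03. The sum of the 8 myeloid markers, 22.4 on A03, stayed within its range on A01 and A02 (21.7 to 23.4). A03 read 6.28 for S100A2, 3.83 for S100A14 and 4.67 for S100P, all far under the other MCF10.AT1 arrays. The median of the 10 genes on A03 was 3.26, against 8.01 and 7.92 on A01 and A02. With A03 added to MCF10.AT1, the change was 2.38 for S100A2, 2.76 for S100A14 and 1.81 for S100A6.

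**Figure D4:**
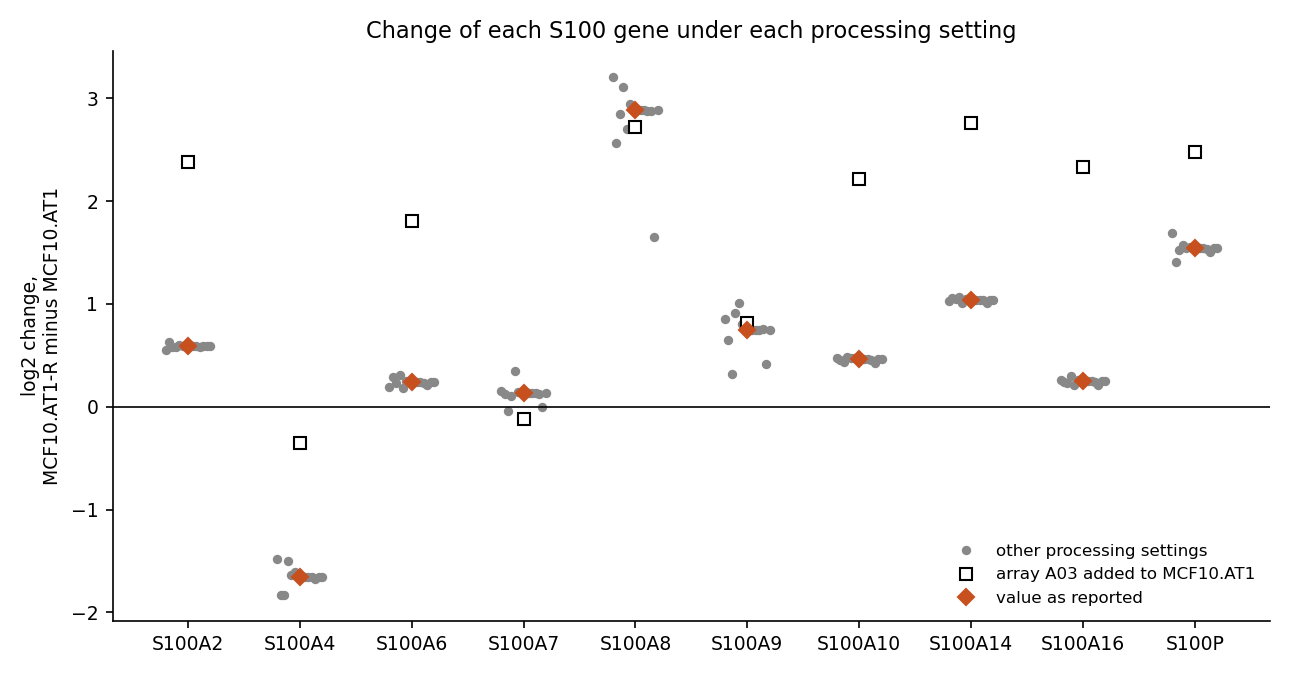
Log2 change (MCF10.AT1-R minus MCF10.AT1) of each S100 gene as reported (diamonds), with array A03 added to MCF10.AT1 (squares) and under the other processing settings (grey points). For S100A8 the low grey point, 1.65, is the change with values raised to the background level, and S100A7 is the gene whose points lie on both sides of 0.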

How the data were processed

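The authors processed the raw intensities with RMA (packages affy and oligo) and deposited the log2 values of 6 arrays, unfiltered, in 138745 rows of which 2995 are controls. The array annotation's version and genome build are not given in the sources used here. Array names were matched to the lines through the study's supplementary principal component plot together with the labels. The 10 genes and all lists were chosen with earlier results of these data known. The filter required a 5-array mean over 1.88, the median of the transcript probe sets, and an SD over 0.18, the limit of the lowest 25%. Both limits were set here since the methods do not state them. Lines were compared with limma (version 3.58.1, R 4.3.3, functions lmFit and eBayes), with Benjamini-Hochberg adjustment over all 51457 probe sets. On simulated data its mean estimated changes were checked, and no limit was set on its rate of false calls. For a symbol with several probe sets the one with the highest mean was used. Named are the 10 genes, called genes of the lists, and stated partners and relatives. Others named, among them MYH9, EZR, IQGAP1, S100PBP, CACYBP, S100A3, S100A5 and S100A13, were chosen after their values were seen. The alternatives changed the arrays, filters, variance model, normalization, background level, probe set rule and threshold. Precision is limited by the number of arrays.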

Additional observations from a re-analysis of the deposited data

How the results depend on the processing

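Of all probe sets 620 were called, and 44 with A03 added back, 182 with the filter on low expression alone, 177 with no filter, 1377 with the trend option, 1086 with that option and the low filter alone, 177 with values raised to the background level and 386 at FDR 1%. Leaving out 1 array at a time gave 280 to 575. Of the 10 S100 genes 3 were called, and 1 with A03 added back (S100A8), 6 with the trend option and with that option and the low filter alone, and 1 with values raised to the background level (S100A14, adjusted p = 0.0344, in place of the other 3). Raising values to the background changed those of S100A8 and left those of S100A4, S100P and S100A14 as they were. Leaving out 1 array at a time gave 2 to 3, with 2 without A02, where S100P was lost. Of the other genes of the S100 lists 0 were called by limma, where 3 had an unadjusted p under 0.05, and 5 with the trend option under either filter. Array weights added S100A14 (adjusted p = 0.0384). S100A6 and S100A16 had changes of 1.81 and 2.33 with A03 added back. Apart from S100A7, which was within background, none of the 10 genes changed direction under the 15 alternatives. For the filters, the variance model and the leaving out of 1 array this was fixed in advance, since their arrays did not overlap. No paired analysis was possible because the array columns carry no replicate numbers that match the labels. The cause of these differences was not tested.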
